A study of Mus musculus with 4 samples.

Results

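The tumor necrosis factor (TNF) superfamily genes of lymphocyte costimulation were followed across RNA-Seq libraries of lung tumor-infiltrating CD4+ T cells. The members were chosen by name, with earlier results of these data known. They comprised 10 genes of the 25239 gene symbols counted, namely the receptors *Tnfrsf4*, *Tnfrsf9*, *Tnfrsf18*, *Tnfrsf25*, *Cd27* and *Cd40* and the ligands *Cd40lg*, *Tnfsf4*, *Tnfsf8* and *Tnfsf14*. All 10 were listed in every library and passed the filter on low counts. There were 4 libraries, 2 from WT and 2 from CD4/ALK4-KO mice, all on the C57BL/6 background and all from mice bearing tumors of LLC-OVA, a line of Lewis lung carcinoma made to express ovalbumin and injected intravenously. CD4/ALK4-KO mice carry CD4CreERT2+/- and Acvr1bfl/fl, so that tamoxifen activates a Cre recombinase driven by the *Cd4* promoter and deletes *Acvr1b*, which encodes the activin receptor ALK4. Whether the WT mice received tamoxifen is not given in the sources used here. All mice of the study were young adult males according to its methods, and the labels place the excision of the lungs between days 18 and 22, whereas the methods give a somewhat earlier range. The labels do not say how many mice went into a library.

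Receptors of this family cluster when they bind their trimeric ligands and recruit TRAF adaptor proteins to their tails, which leads to NF-kappaB signaling and prolongs the survival and division of T cells that have seen antigen. Several of the ligands, such as the OX40 ligand, are displayed by antigen-presenting cells, whereas CD40L sits on the helper T cell and engages CD40 on the B cell, macrophage or dendritic cell. In tumors, OX40, GITR and 4-1BB are found on recently activated and on regulatory T cells and are targets of agonist antibodies.

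The libraries differed first in their content of T cell transcripts. The summed level of 16 T cell marker genes was 526 to 573 CPM (counts per 1e+06 counts, scaled by TMM) in the WT libraries and 2876 to 2891 CPM in the CD4/ALK4-KO libraries, and all 16 rose. *Cd4* had 759 and 649 counts in WT against 3654 and 4033 in CD4/ALK4-KO. The targeted gene *Acvr1b* had 426 and 342 counts in WT against 322 and 445 in CD4/ALK4-KO (log2 difference 0.16, SE 0.24, adjusted p = 0.657), so the groups overlapped and it did not separate the libraries as labelled. These counts cover the whole gene and all cells in a library, so they do not test its deletion in CD4+ T cells. Markers of other cells were abundant in a sample labelled CD4+ T cells, with 1892 to 2684 CPM for 11 macrophage genes and 3823 to 6857 CPM for 6 fibroblast genes over the 4 libraries. In bulk RNA, fewer T cells and less RNA per T cell cannot be told apart. For this reason each member is given on 2 scales, the TMM scale and a T cell receptor scale on which the libraries were equalized on 7 genes of the T cell receptor complex and its proximal signaling (*Cd3d*, *Cd3e*, *Cd3g*, *Cd247*, *Lck*, *Zap70* and *Lat*). Log2 differences and log2 fold changes both give CD4/ALK4-KO over WT. The T cell receptor scale moved the median log2 fold change of all genes tested from -0.0082 to -2.37. The 7 genes themselves ran from -0.39 for *Cd3d* to 0.58 for *Cd3e* on it. Standard errors on this scale leave out that spread, so small differences there depend on the genes chosen. The 7 genes are shared with CD8 T cells, so the scale is not a level per CD4+ T cell. The CD8 T cell markers *Cd8a* and *Cd8b1* were higher in CD4/ALK4-KO as well (median log2 fold change 2.46 on the TMM scale).

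On the TMM scale, 9 of the 10 members were higher in the CD4/ALK4-KO libraries and none was lower in edgeR's quasi-likelihood test. The rises ran from 1.72-fold for *Tnfrsf9* to 6.71-fold for *Cd27*. Across all 13919 genes tested, 17.4% were called higher and 15.4% lower, whereas the members were chosen with earlier results of these data known. The median log2 fold change of the members was 2.10, beside 2.37 for the 16 T cell markers. None of the members was lower at an unadjusted p under 0.05 either, a threshold for which the share of all genes is not given here. DESeq2's Wald test called 9 higher and 0 lower, beside 17% higher and 14.6% lower of the genes it tested. For all 10 members both CD4/ALK4-KO libraries lay above both WT libraries in CPM, an order that 32.7% of the genes tested shared, while 34% had the opposite order. On the T cell receptor scale the picture split, as 5 members had log2 fold changes of 0.064 to 0.39 and were not called, and the other 5 were called lower. None was called higher there, also at an unadjusted p under 0.05. On that scale 93.3% of all genes were called lower and 0.194% higher.

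**Figure D1:**
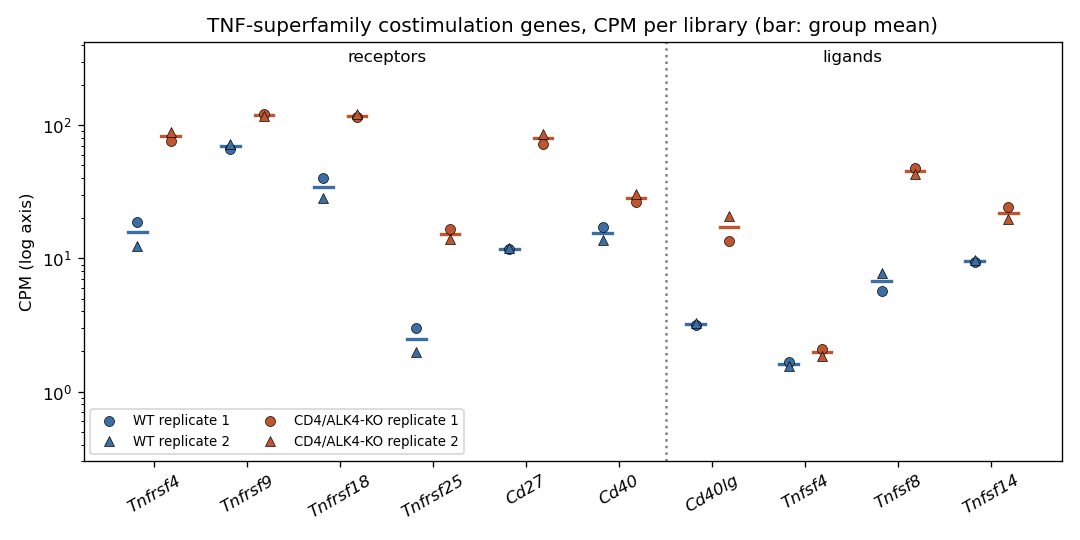
CPM (TMM-adjusted, log axis) of the 10 members in each of the 4 libraries, with circles for replicate 1, triangles for replicate 2 and a bar at each group's mean (n = 2). Both CD4/ALK4-KO libraries lie above both WT libraries for every member, with the narrowest gap for *Tnfsf4*.

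Of the members, 5 lie on mouse chromosome 4, and *Tnfrsf4* and *Tnfrsf18* are neighbours there. On GRCm38 *Tnfrsf4* spans 156013843 to 156016612 and *Tnfrsf18* spans 156026164 to 156028895, both on the plus strand and 9551 bp apart. *Tnfrsf9* (150914562 to 150946102) and *Tnfrsf25* (152115934 to 152120119) lie upstream of them on the same strand. *Tnfsf8* is at 63831308 to 63861347 on the minus strand of the same chromosome, 86194 bp from *Tnfsf15*. The remaining members were *Cd40* on chromosome 2 (165055627 to 165072948), *Cd27* on chromosome 6 (125232622 to 125237010), *Tnfsf14* on chromosome 17 (57189492 to 57194177), *Tnfsf4* on chromosome 1 (161395409 to 161418410) and *Cd40lg* on chromosome X (57212143 to 57224042). An antisense transcript, *Gm16008*, overlaps exons of *Tnfrsf18* on the opposite strand. The library kit does not mark strand, so reads of this pair cannot be told apart. *Mir8113*, a gene also counted here, covers 129 bp of *Cd27* exon on the same strand, where reads may be missing from *Cd27*.

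Promoter windows from RefSeq (GRCm38.p6) were found for 7 of the 10 members, in 9 windows, and the 250 bases before each start were searched on both strands for 5 motifs. The NFAT core GGAAA occurred in windows of all 7 genes and in 55.6% of the 32851 windows of all genes. Matches to the NF-kappaB consensus were found for *Tnfrsf9* and *Tnfrsf25* (7.25% of all windows) and to the AP-1 motif TGANTCA for *Tnfrsf9* and *Tnfsf14* (6.75%). A gene with several windows was counted when any of them matched, whereas the shares are of windows. In *Tnfrsf9* both motifs matched in the window at 150927749 to 150927998 and neither in that at 150919905 to 150920154. The RUNX motif TGTGGT occurred in *Tnfrsf25* (14% of all windows) and TATAAA in none of the 7 (12.4%). The NF-kappaB match of *Tnfrsf25* lay in its window at 152116093 to 152116342 and the RUNX match in that at 152115684 to 152115933. The sequences printed here are those of *Cd27* and *Tnfsf14*, with log2 fold changes of 2.75 and 1.20, and a site of 30 bases from *Tnfrsf9*, at 0.78. The *Tnfrsf9* site is from the window at 150927749 to 150927998, where 81 of the 250 bases lie in annotated exon. Each reads along the gene, 5′ to 3′, and capitals mark the motif matches.
Cd27 (chr6:125237028-125237277, minus strand): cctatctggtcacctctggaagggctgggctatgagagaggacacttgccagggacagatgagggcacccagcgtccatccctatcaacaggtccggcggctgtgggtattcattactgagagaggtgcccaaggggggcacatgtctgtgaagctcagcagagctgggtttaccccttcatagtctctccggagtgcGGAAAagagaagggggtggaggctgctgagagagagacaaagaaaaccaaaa
Tnfsf14 (chr17:57194182-57194431, minus strand): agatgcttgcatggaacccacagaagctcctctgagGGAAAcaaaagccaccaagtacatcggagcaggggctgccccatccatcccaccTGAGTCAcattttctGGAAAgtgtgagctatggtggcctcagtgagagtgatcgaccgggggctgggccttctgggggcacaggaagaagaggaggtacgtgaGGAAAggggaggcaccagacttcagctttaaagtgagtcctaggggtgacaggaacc
Tnfrsf9 (chr4:150927951-150927980, plus strand): cagctGGGGATTTCCCaggaggccctgctc
The *Cd27* window held a GGAAA match and no other, whereas the *Tnfsf14* window held 3 of them and an AP-1 match 160 bases before the start. In *Tnfrsf9* the capitals cover 3 overlapping NF-kappaB matches, which share bases with a GGAAA match on the opposite strand, and an AP-1 match began 15 bases before the same start. These matches describe the letters only, and binding was not measured here.

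Among the receptors, *Tnfrsf4* encodes OX40, which appears on T cells after antigen contact and is held by regulatory T cells. It had 259 and 169 counts in the WT libraries and 915 and 1097 in the CD4/ALK4-KO libraries. In CPM these were 15.7 ± 4.53 (SD, n = 2) against 82.9 ± 8.47, a 5.28-fold rise (log2 fold change 2.40, SE 0.25, adjusted p = 1.98e-07). The groups lay far apart, although WT replicate 1 was above WT replicate 2. Set against the T cell receptor complex genes, its difference was not detectable, as *Tnfrsf4* had 62.1 and 47.1 counts per 1000 counts of the 7 genes in WT and 50.9 and 63.4 in CD4/ALK4-KO, and the groups overlapped. Its log2 fold change on that scale was 0.064 (adjusted p = 0.83).

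*Tnfrsf18*, the neighbour of *Tnfrsf4*, encodes GITR, a costimulatory receptor that regulatory T cells carry at high density. It had 551 and 382 counts in WT and 1377 and 1497 in CD4/ALK4-KO. These were 34.2 ± 8.46 and 118 ± 3.94 CPM (SD, n = 2), a 3.46-fold rise (log2 fold change 1.79, SE 0.23, adjusted p = 3.70e-06). Its rise was smaller than that of the T cell markers, and per 1000 counts of the T cell receptor complex genes it was lower in CD4/ALK4-KO (76.6 and 86.5) than in WT (132 and 106). On that scale its log2 fold change was -0.55 (adjusted p = 0.0432). Within each library, the count of *Tnfrsf18* per 100 counts of *Tnfrsf4* was 213 and 226 in WT and 150 and 136 in CD4/ALK4-KO, a ratio that no scaling between libraries can move. The groups did not overlap, but with 2 libraries a group this ratio was not tested.

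*Tnfrsf9* encodes 4-1BB, also called CD137, an inducible receptor that promotes the survival of activated T cells and is also made by NK and myeloid cells. It was the member with the most counts in WT, with 915 and 974, and had 1437 and 1459 in CD4/ALK4-KO. The levels were 69.4 ± 3.70 and 119 ± 1.80 CPM (SD, n = 2), a 1.72-fold rise (log2 fold change 0.78, SE 0.21, adjusted p = 0.00616). The replicates agreed closely. The call was lost without WT replicate 1 or WT replicate 2 and kept without either CD4/ALK4-KO library, while the log2 fold change stayed between 0.73 and 0.84. Over all genes tested, too, fewer were called when a WT library was left out and more when a CD4/ALK4-KO library was. Against the T cell receptor complex genes *Tnfrsf9* fell by 1.58 on the log2 scale (adjusted p = 5.23e-09), from 219 and 271 per 1000 of their counts in WT to 79.9 and 84.3 in CD4/ALK4-KO. Its share of the summed counts of the 10 members was 37.6% and 44.3% in WT and 23.4% and 21.7% in CD4/ALK4-KO, where the shares of *Cd27* were 14.1% and 15.9% after 6.61% and 7.36% in WT.

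*Cd27* encodes the receptor for CD70 and is carried by naive and memory T cells and by subsets of NK and B cells. It had 161 and 162 counts in WT and 868 and 1067 in CD4/ALK4-KO. In CPM these were 11.9 ± 0.161 and 79.7 ± 9.55 (SD, n = 2), a log2 difference of 2.75 (SE 0.24, adjusted p = 2.80e-08). *Tnfsf8* had nearly the same value (2.74), and the order of the leading members changed with the library left out, while *Cd27* stayed between 2.62 and 2.89. On the T cell receptor scale it was 0.39 (adjusted p = 0.196), with both CD4/ALK4-KO libraries (48.3 and 61.6 per 1000) above both WT libraries (38.6 and 45.1) but not called. Beside it, 6 of the 6 NK cell markers tested rose, with a summed level of 67.5 to 115 CPM in WT and 263 to 299 CPM in CD4/ALK4-KO, and their part in the *Cd27* counts was not tested. *Klra4*, also on the NK cell list, was at 0 in 3 libraries.

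*Tnfrsf25* encodes DR3, a receptor with a death domain that binds TL1A and expands regulatory and effector T cells. It was scarce in WT, with 41 and 27 counts, and had 198 and 172 in CD4/ALK4-KO. The rise was 6.10-fold, from 2.49 ± 0.704 to 15.3 ± 1.91 CPM (SD, n = 2), with a log2 difference of 2.61 (SE 0.35, adjusted p = 6.10e-06). The low WT counts widened its error, and without WT replicate 1 or 2 the log2 fold change was 2.93 or 2.35. On the T cell receptor scale it was 0.27 (adjusted p = 0.538), with 9.83 and 7.52 per 1000 in WT against 11.0 and 9.94 in CD4/ALK4-KO, which nearly touched.

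The last receptor, *Cd40*, is made by B cells, macrophages and dendritic cells and receives the signal of CD40L from helper T cells. It had 235 and 185 counts in WT and 314 and 378 in CD4/ALK4-KO. The levels of 15.4 ± 2.45 and 28.5 ± 3.0 CPM (SD, n = 2) gave a log2 difference of 0.89 (SE 0.26, adjusted p = 0.0121). Its call was lost without WT replicate 1 (log2 fold change 1.06, adjusted p = 0.0626) and without WT replicate 2 (0.73, adjusted p = 0.199). *Cd40* was lower on the T cell receptor scale (-1.46, adjusted p = 4.94e-06), with 56.3 and 51.5 per 1000 in WT and 17.5 and 21.8 in CD4/ALK4-KO. Of the cells known to make it, B cells moved with the genotype, as all 10 B cell markers rose, from a summed 72.8 to 86.5 CPM in WT to 263 and 523 CPM in CD4/ALK4-KO replicates 1 and 2. Of 8 dendritic cell markers 4 rose and 1, *Clec9a*, fell (summed 103 to 104 CPM in WT, 181 to 341 CPM in CD4/ALK4-KO). Much of that sum in CD4/ALK4-KO replicates 1 and 2 was *Ccr9* (121 and 18.1 CPM, not called) and *Itgae* (77.0 and 64.7 CPM). Of 11 macrophage markers 1 rose and 1 fell (2326 to 2684 CPM in WT and 1892 to 2036 CPM in CD4/ALK4-KO). The B cell sum in CD4/ALK4-KO replicate 2 was far above that of replicate 1, whereas *Cd40* was similar in these 2 libraries. The part of each cell type in the *Cd40* counts was not tested.

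**Figure D2:**
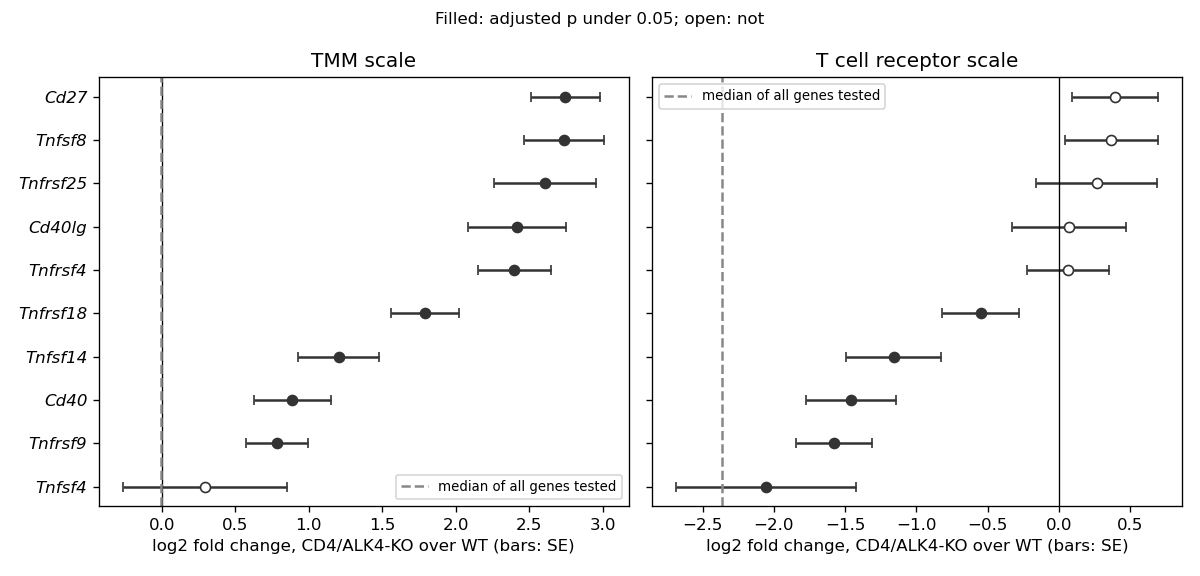
Log2 fold changes of the 10 members, CD4/ALK4-KO over WT, with SEs as bars, on the TMM scale at the left and the T cell receptor scale at the right; filled points had an adjusted p under 0.05, and the dashed line is the median of all 13919 genes tested. *Cd27*, *Tnfsf8*, *Tnfrsf25*, *Cd40lg* and *Tnfrsf4* lie near 0 at the right, whereas the other 5 lie below it, with *Tnfsf4* nearest to the median of all genes.

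Among the ligands, *Cd40lg* encodes CD40L, which activated helper T cells display to antigen-presenting cells. It had 43 and 44 counts in WT and 160 and 256 in CD4/ALK4-KO. The mean rose from 3.20 ± 0.0813 to 17.1 ± 5.16 CPM (SD, n = 2), a log2 difference of 2.42 (SE 0.34, adjusted p = 9.72e-06). The WT libraries were nearly equal and the CD4/ALK4-KO libraries differed widely, so that the log2 fold change was 2.72 without CD4/ALK4-KO replicate 1, but 2.07 when replicate 2 was left out. Its value on the T cell receptor scale was 0.072 (SE 0.40, adjusted p = 0.861), with 10.3 and 12.3 per 1000 in WT and 8.90 and 14.8 in CD4/ALK4-KO, an error too wide to show equality. The receptor *Cd40* had the smaller fold change, with 547 and 420 counts per 100 counts of *Cd40lg* in WT and 196 and 148 in CD4/ALK4-KO.

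*Tnfsf8* encodes CD30L, a ligand that activated T cells themselves display. It had 78 and 106 counts in WT and 568 and 528 in CD4/ALK4-KO. This was a 6.68-fold rise, from 6.76 ± 1.52 to 45.2 ± 3.50 CPM (SD, n = 2), with a log2 difference of 2.74 (SE 0.27, adjusted p = 1.32e-07). Scaled to the T cell receptor genes, it was 0.37 (adjusted p = 0.267). *Tnfsf8* took 3.20% and 4.82% of the members' summed counts in WT and 9.24% and 7.86% in CD4/ALK4-KO.

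*Tnfsf14* encodes LIGHT, which binds HVEM on lymphocytes and the lymphotoxin beta receptor on stromal and myeloid cells. It had 128 and 131 counts in WT and 288 and 243 in CD4/ALK4-KO. The levels of 9.51 ± 0.243 and 21.9 ± 3.19 CPM (SD, n = 2) gave a log2 difference of 1.20 (SE 0.28, adjusted p = 0.00193). Per 1000 counts of the T cell receptor complex genes it went the other way, from 30.7 and 36.5 in WT to 16.0 and 14.04 in CD4/ALK4-KO (log2 fold change -1.16, adjusted p = 0.000629).

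*Tnfsf4*, which encodes the OX40 ligand of antigen-presenting cells, was the scarcest member and the only one not called on the TMM scale. It had 23 and 21 counts in WT and 25 and 23 in CD4/ALK4-KO, which are 1.62 ± 0.0890 and 1.98 ± 0.168 CPM (SD, n = 2). Its log2 difference of 0.29 (SE 0.56, adjusted p = 0.728) had a 95% interval of -0.86 to 1.44, so a 2-fold rise was inside the interval and could not be told from no difference at this depth. *Tnfsf4* was lower on the T cell receptor scale (-2.05, adjusted p = 0.00132). Within the libraries, *Tnfsf4* had 8.88 and 12.4 counts per 100 counts of its receptor *Tnfrsf4* in WT and 2.73 and 2.10 in CD4/ALK4-KO. The groups did not overlap in this ratio, in which the receptor count rose and the ligand count lay between 21 and 25.

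**Figure D3:**
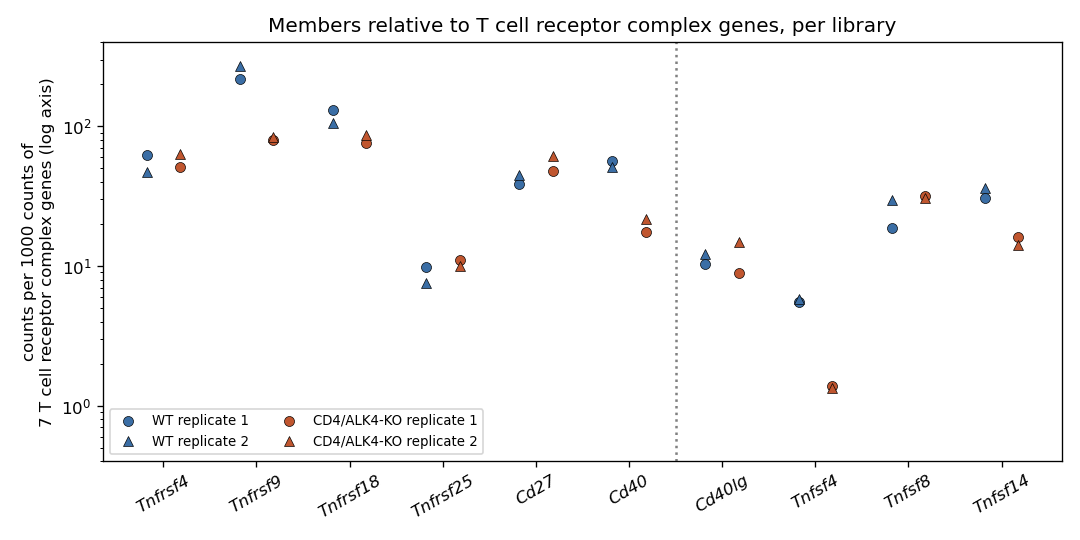
Counts of each member per 1000 counts of 7 T cell receptor complex genes (log axis) in each library, with circles for replicate 1 and triangles for replicate 2. *Tnfrsf9*, *Tnfrsf18*, *Cd40*, *Tnfsf4* and *Tnfsf14* are lower in both CD4/ALK4-KO libraries than in both WT libraries, whereas *Tnfrsf4* and *Cd40lg* overlap between the groups and *Tnfrsf25*, *Cd27* and *Tnfsf8* are slightly higher in CD4/ALK4-KO.

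To compare the members with each other, CPM were divided by the length of each gene's merged exons in kb. Per length, *Tnfrsf9* (25.5 ± 1.36 CPM per kb) and *Tnfrsf18* (22.5 ± 5.55) led in WT and overlapped each other, followed by *Tnfrsf4* (11.5 ± 3.32). *Tnfsf14* (5.15 ± 0.132) and *Cd27* (5.10 ± 0.0692) overlapped next, then came *Cd40* (4.52 ± 0.721), *Cd40lg* (2.56 ± 0.0650) and *Tnfsf8* (1.78 ± 0.398), and *Tnfrsf25* (1.10 ± 0.309) overlapped *Tnfsf4* (0.877 ± 0.0483). In CD4/ALK4-KO the order of the leading genes was another, with *Tnfrsf18* first (77.7 ± 2.58 CPM per kb), *Tnfrsf4* second (60.7 ± 6.21) and then *Tnfrsf9* (43.9 ± 0.663), none overlapping its neighbour. *Cd27* followed (34.2 ± 4.10), and *Cd40lg* (13.7 ± 4.13), *Tnfsf8* (11.9 ± 0.920) and *Tnfsf14* (11.9 ± 1.73) could not be ordered, as each overlapped the next. *Cd40* (8.37 ± 0.880), *Tnfrsf25* (6.71 ± 0.839) and *Tnfsf4* (1.08 ± 0.0911) closed the order. All these errors are SD with n = 2. *Tnfrsf18*, *Tnfrsf4* and *Tnfrsf9* stood above every ligand among the members in both groups.

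The genes that bind the members showed several directions. *Tnfrsf8*, which encodes CD30, the receptor for CD30L, had 16 and 9 counts in WT and 36 and 62 in CD4/ALK4-KO, a log2 difference of 2.12 (SE 0.55, adjusted p = 0.00527) whose call was lost without WT replicate 2 (1.78, adjusted p = 0.103). *Tnfrsf14*, which encodes HVEM, rose from 102 and 119 to 232 and 254 counts, with a log2 difference of 1.30 (SE 0.28, adjusted p = 0.00116). It moved alongside its ligand *Tnfsf14*, with 79.7 and 90.8 counts per 100 of the ligand in WT and 80.6 and 105 in CD4/ALK4-KO, which overlapped. *Ltbr*, the lymphotoxin beta receptor gene and the other receptor of LIGHT, fell from 587 and 507 to 266 and 260 counts, with a log2 difference of -0.89 (SE 0.24, adjusted p = 0.00582), a call lost without WT replicate 1 (-0.79, adjusted p = 0.144). *Ltbr* is known as a gene of stromal and myeloid cells rather than T cells, and the 6 fibroblast markers summed to 6173 to 6857 CPM in WT and 3823 to 4592 CPM in CD4/ALK4-KO, with 3 of 6 lower. The part of those cells in the *Ltbr* counts was not tested.

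Of the remaining ligands of the members, *Tnfsf9* had a WT mean per length near that of *Tnfsf14* (5.20 ± 1.76 CPM per kb, SD, n = 2), and the others had few counts. Its WT libraries (6.45 and 3.95) lay on either side of those of *Tnfsf14* (5.06 and 5.24). *Gm11110*, a gene also counted here, covers 192 bp of *Tnfsf9* exon on the opposite strand, where reads may be missing from *Tnfsf9*. *Tnfsf9*, which encodes the ligand of 4-1BB, had 114 and 69 counts in WT and 103 and 98 in CD4/ALK4-KO, and its value on the log2 scale of 0.31 (95% interval -0.40 to 1.01, adjusted p = 0.532) was -0.0042 without WT replicate 2. *Tnfsf15*, the TL1A gene, had 6 and 13 against 19 and 26 counts (log2 fold change 1.39, SE 0.65, adjusted p = 0.105), and depended on single libraries. It was 2.06 (adjusted p = 0.174) without WT replicate 2, 0.94 (adjusted p = 0.583) without WT replicate 1 and 1.61 without CD4/ALK4-KO replicate 1, where alone it was called (adjusted p = 0.0372). *Tnfsf18*, the GITR ligand gene, with 8 and 6 against 0 and 3 counts, and *Cd70*, with 1 and 0 against 0 and 2, did not pass the filter and were not tested. The receptor genes *Tnfrsf18* and *Cd27* were thus measured beside almost no reads of their ligands at this depth.

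Beyond the members, the 22 other receptor genes of the superfamily included 20 that were tested. Of these, 7 rose, 3 fell and 10 were not called, with a median log2 fold change of 0.37. Among all genes tested, 17.4% were called higher and 15.4% lower. The most abundant were *Tnfrsf1b*, the TNF receptor 2 gene of T and myeloid cells, which rose with a log2 fold change of 1.46 (980 and 999 against 1939 and 2924 counts, SE 0.23, adjusted p = 3.59e-05), and *Tnfrsf1a*, the widely expressed TNF receptor 1 gene (1594 and 1235 against 1095 and 1388), which was at -0.022 (95% interval -0.47 to 0.43, adjusted p = 0.951). *Tnfrsf12a*, the Fn14 gene of adherent cells, fell with a log2 fold change of -0.97 (1223 and 809 against 504 and 415 counts, SE 0.24, adjusted p = 0.00319), a call lost without WT replicate 1 (-0.66, adjusted p = 0.212). *Tnfrsf11b*, which encodes the secreted decoy receptor osteoprotegerin, rested on single libraries, with 792 and 806 counts in WT and 883 and 316 in CD4/ALK4-KO, and its value of -0.24 (adjusted p = 0.765) became -1.17 (adjusted p = 1.62e-05) without CD4/ALK4-KO replicate 1, but 0.34 when replicate 2 was left out. The 3 receptors that fell were *Tnfrsf12a*, *Ltbr* and *Eda2r*, the last named after its values were seen (log2 fold change -0.86, adjusted p = 0.00695), whose call was lost without WT replicate 2 (adjusted p = 0.199).

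Of the 14 other ligand genes, 11 were tested, 6 rose and none fell, with a median log2 fold change of 1.39. The shares of all genes tested were 17.4% higher and 15.4% lower. No ligand was lower at an unadjusted p under 0.05, for which the share of all genes is not given here. DESeq2 also called 6 higher and 0 lower, beside 17% and 14.6% of the genes it tested. *Ltb*, which encodes lymphotoxin beta, rose from 742 and 632 to 2161 and 2353 counts (log2 fold change 1.88, SE 0.22, adjusted p = 8.85e-07). *Tnfsf10*, the gene of the death ligand TRAIL, rose with a log2 difference of 1.92 (SE 0.25, adjusted p = 5.64e-06) and *Tnfsf11*, the RANKL gene, with one of 2.03 (SE 0.29, adjusted p = 1.15e-05). *Tnf* itself had 131 and 98 counts in WT and 211 and 305 in CD4/ALK4-KO, a log2 difference of 1.34 (SE 0.29, adjusted p = 0.00126). On the T cell receptor scale these 4 were at -0.47, -0.47, -0.33 and -1.001 in the same order, and *Tnf* alone of them was called lower there (adjusted p = 0.0037).

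The TRAF adaptors, which carry the signal of the members' tails, included 6 genes, of which 4 rose and none fell on the TMM scale. Over all genes tested, 17.4% were called higher and 15.4% lower. DESeq2 called 4 higher and 0 lower, beside 17% and 14.6% of the genes it tested. At an unadjusted p under 0.05 there were 5 higher and 1 lower. The share of all genes at that unadjusted threshold is not given here. *Traf1*, itself a known NF-kappaB target, rose most, from 214 and 212 to 599 and 980 counts, with a log2 difference of 2.05 (SE 0.25, adjusted p = 1.90e-06) on the TMM scale and -0.29 (adjusted p = 0.33) on the T cell receptor scale. *Traf5*, with 201 and 164 against 275 and 443 counts, was at 1.14 on the log2 scale (adjusted p = 0.0032), and *Traf6* had 702 and 858 against 1488 and 1241 counts and was at 0.98 (adjusted p = 0.00169). *Traf3*, a brake on noncanonical NF-kappaB signaling, was at 0.85 (adjusted p = 0.00819). These calls were less firm than that of *Traf1*, as *Traf3* lost its call without WT replicate 1 (adjusted p = 0.113), WT replicate 2 (0.0961) or CD4/ALK4-KO replicate 2 (0.0664), *Traf5* without WT replicate 2 (0.0646) and *Traf6* without WT replicate 1 (0.0977). *Traf2*, at 0.55 (95% interval 0.017 to 1.08, adjusted p = 0.106), was called without CD4/ALK4-KO replicate 1 (0.82, adjusted p = 0.00606), and *Traf4*, at -0.62 (95% interval -1.20 to -0.042, adjusted p = 0.0927), was called lower without CD4/ALK4-KO replicate 2 (-0.89, adjusted p = 0.0107).

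**Figure D4:**
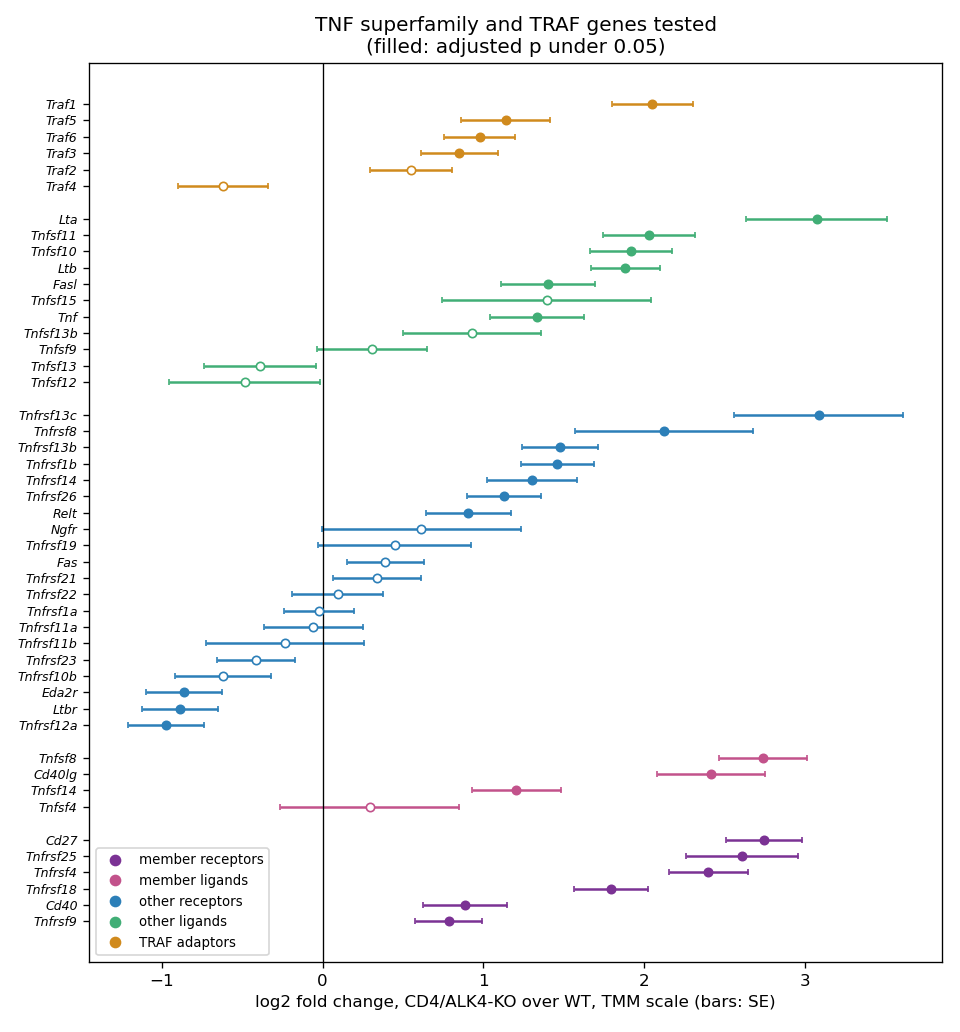
Log2 fold changes on the TMM scale, CD4/ALK4-KO over WT, with SEs as bars, for the members and for the other superfamily receptors, other ligands and TRAF adaptors tested; filled points had an adjusted p under 0.05. All members lie above 0 on this scale, although 5 of them turn negative on the T cell receptor scale, and the other receptors run from -0.97 for *Tnfrsf12a* to 3.09 for *Tnfrsf13c* (2.18 without CD4/ALK4-KO replicate 2).

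Regulatory T cells are known to carry OX40, GITR and 4-1BB, and their markers were higher in CD4/ALK4-KO on the TMM scale, as these receptors were. Of 8 regulatory T cell markers 7 rose and 1 was not called, the latter being *Capg*, with 277 to 363 CPM in WT and 194 to 288 CPM in CD4/ALK4-KO. *Foxp3*, the defining gene, had 67 and 28 counts in WT and 201 and 347 in CD4/ALK4-KO, with a log2 fold change of 2.69 that was 3.44 without WT replicate 1, but 2.20 when WT replicate 2 was left out. The summed level of the list was 382 to 485 CPM in WT and 772 to 876 CPM in CD4/ALK4-KO. Most of the sum in both WT libraries was *Capg*, with 363 of 485 CPM in replicate 1 and 277 of 382 CPM in replicate 2. The median log2 fold change of the list was 2.54 on the TMM scale, or 0.22 when scaled to the T cell receptor genes. Not all receptors followed these values, with *Tnfrsf4* at 2.40 and 0.064, *Tnfrsf18* at 1.79 and -0.55 and *Tnfrsf9* at 0.78 and -1.58 on the same scales. No marker of the list was at 0 in any library. The part of regulatory T cells in the counts of *Tnfrsf4*, *Tnfrsf18* and *Tnfrsf9* was not tested. CD8 T cells and other lymphocytes, which can carry the same receptors, moved in the same direction, as *Cd8a* and *Cd8b1* summed to 43.6 to 47.8 CPM in WT and 192 to 310 CPM in CD4/ALK4-KO.

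**Figure D5:**
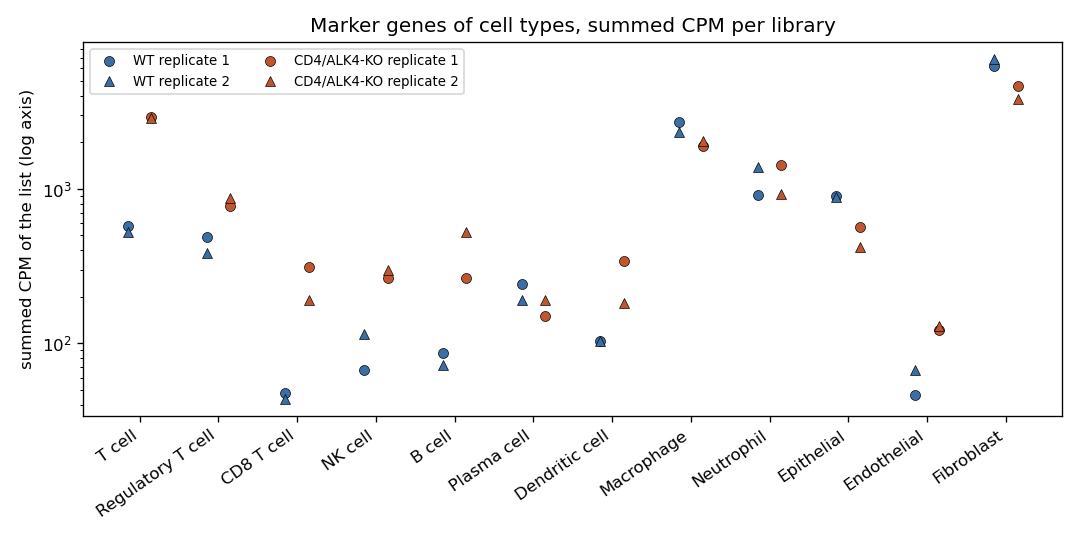
Summed CPM (log axis) of the marker genes of 12 cell types in each library, with circles for replicate 1 and triangles for replicate 2. T cell, regulatory T cell, CD8 T cell, NK cell, B cell and dendritic cell sums are higher in both CD4/ALK4-KO libraries. Most of the regulatory T cell sum in WT was *Capg* (363 and 277 CPM), which was not called. In the dendritic cell sum, *Ccr9* had 121 and 18.1 CPM in CD4/ALK4-KO replicates 1 and 2. The endothelial sum is higher in both CD4/ALK4-KO libraries through *Pecam1* alone (22.5 and 42.7 CPM in WT, 106 and 108 in CD4/ALK4-KO). The median log2 fold change of the endothelial list was -0.54. Macrophage, epithelial and fibroblast sums are higher in both WT libraries.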

How the data were processed

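RNA-Seq libraries of total RNA (TruSeq RNA v2 kit, 75 bp single-end reads) were analysed from 4 samples grouped by their labels, 2 WT and 2 CD4/ALK4-KO. The authors used HISAT2 (mm10) followed by htseq-count (mode intersection-nonempty); the values deposited are raw counts, not normalized. The annotation, strand option and tool versions are not given in the sources used here. Total counts ranged from 11823908 to 13943237. Replicates differed by more than sampling noise (chi-square per degree of freedom 13.3 in WT and 24.0 in CD4/ALK4-KO). The design text calls them biological replicates.

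From the counts, edgeR 4.0.16 (R 4.3.3) was run with filterByExpr (13919 of 25239 genes), TMM and glmQLFit (robust, a single genotype term), followed by glmQLFTest at a Benjamini-Hochberg adjusted p of 0.05 over all genes, two-sided. The standard error is the absolute log2 fold change over the square root of F. The T cell receptor scale used the summed counts of 7 genes as library size. Tested on simulated data of 13733 genes, the procedure recovered 86.7% of 195 that had a log2 difference of 2, and 10 unchanged genes were called. The simulation balanced rises and falls, took its dispersions from these data and held no difference in T cell content. It therefore does not give the error rates for libraries that differ as these do. Alternatives were DESeq2 1.42.0 size factors and its Wald test, upper quartile scaling, the T cell receptor scale, omitting the low-count filter, a minimum of 10 counts per library, a block for replicate number and each library left out. Same-numbered libraries did not deviate together (correlation -0.21). Gene positions and exon lengths are from GENCODE M21 (GRCm38).

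The members and lists were chosen with earlier results of these data known. Named genes were the members, their binding partners, TRAF adaptors and, of other superfamily receptors and ligands, the 4 with the highest mean CPM. Of the marker lists not described with the results, plasma cell genes (4) had 2 higher and 1 lower, neutrophil genes (8) 2 higher, epithelial genes (7) 1 higher and 5 lower, and endothelial genes (5) 1 higher and 1 lower.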

Additional observations from a re-analysis of the deposited data

How the results depend on the processing

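On the T cell receptor scale 0 members were called higher and 5 lower, 0 other receptors higher and 18 lower, 0 other ligands higher and 6 lower, and 0 TRAF adaptors higher and 5 lower. This scale lowers every gene by construction. It turned the direction of *Tnfrsf9* (-1.58), *Tnfrsf18* (-0.55), *Cd40* (-1.46), *Tnfsf4* (-2.05), *Tnfsf14* (-1.16), *Tnfsf9* (-2.03), *Tnfsf15* (-0.96), *Tnfrsf8* (-0.19), *Tnfrsf14* (-1.06), *Traf1* (-0.29), *Traf2* (-1.79), *Traf3* (-1.50), *Traf5* (-1.20), *Traf6* (-1.40), *Tnfrsf1b* (-0.89), *Ltb* (-0.47), *Tnfsf10* (-0.47), *Tnf* (-1.001), *Tnfsf11* (-0.33) and *Acvr1b* (-2.18). With upper quartile scaling, DESeq2's size factors, its Wald test, other filters or the replicate block, each of the 31 named genes tested kept its direction and its side of the threshold, except that *Tnfrsf8* and *Tnfsf15* have under 10 counts in a library and were not tested under that filter. With each library left out in turn, members higher ranged from 7 to 9, members lower stayed at 0, other receptors higher ranged from 5 to 8 and lower from 1 to 4, other ligands higher from 6 to 8 and lower stayed at 0, and TRAF adaptors higher from 2 to 5 and lower from 0 to 1. Direction turned for *Tnfsf9* (-0.0042 without WT replicate 2, 0.70 without WT replicate 1), *Tnfrsf1a* (0.16 without WT replicate 1, 0.14 without CD4/ALK4-KO replicate 1 and -0.19 at the lowest), *Tnfrsf11b* (from -1.17 to 0.34, the latter when CD4/ALK4-KO replicate 2 was left out) and *Acvr1b* (-0.060 to 0.38, the former with the same library left out). The cause of these turns was not tested. Over all genes, fewer were called in each direction when a WT library was left out, and more when a CD4/ALK4-KO library was left out. On the T cell receptor scale 27 genes were called higher and 12986 lower. With the replicate number as a block, 1768 genes were higher and 1444 lower, against 2422 and 2140 without it, and 9 members were higher in both fits; the deviations of same-numbered libraries correlated at -0.21, so the numbers were not read as pairs. A crossed pairing, added after the data were seen, gave 3118 higher and 3037 lower, 9 members higher and 1 TRAF adaptor lower. The 2 libraries per group and the few counts of *Tnfsf4*, *Tnfsf18* and *Cd70* limit what could be detected.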
